A study of Mus musculus with 18 samples.

Results

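The genes described here are 44 interferon-stimulated genes, chosen by symbol from a list of genes that interferons are known to induce. All 44 symbols were found among the 54532 genes of the count table, and all 44 were among the 17537 genes with enough counts to be tested. Whole larynges were profiled by mRNA sequencing in 18 libraries, 6 in each of 3 groups of male C57BL6/J mice aged 8 to 9 weeks. One group stayed in room air, one received smoke of the 3R4F research cigarette, and one received aerosol of JUUL Virginia tobacco e-cigarettes, each in the inEXPOSE whole-body chamber for 1 hour on 5 days a week over 4 weeks. The mice carry no transgene or deletion that the labels name, and since the labels do not tie a library to 1 animal, a p-value here covers the spread among libraries, which may be technical. The groups are called air, smoke and e-cigarette below, and libraries are named by group and number.

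Interferons are secreted when a cell detects foreign or misplaced nucleic acid, or, for interferon gamma, by activated lymphocytes. Type I and III interferons act through JAK1 and TYK2 to assemble the ISGF3 complex, which holds STAT2 and IRF9 and binds the interferon-stimulated response element (ISRE) in promoters, while interferon gamma acts through the gamma-activated site (GAS). The induced genes encode antiviral effectors, nucleic acid sensors, GTPases that attack vacuoles of microbes, regulators of the response itself, and chemokines that recruit lymphocytes, and a low level of many of them is kept up in airway mucosa without infection.

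The promoters that belong to the findings are shown first. They are those of the members that fell in the e-cigarette libraries and hold an ISRE core, read 5′ to 3′ on the gene's strand as the 250 bases before the start site, from RefSeq for GRCm38.p6, with ISRE cores in capitals. Cxcl10 lies at chr5:92348890-92349139 on the minus strand, Bst2 at chr8:71537473-71537722 on the minus strand and Oas1a at chr5:120907526-120907775 on the minus strand.
Cxcl10: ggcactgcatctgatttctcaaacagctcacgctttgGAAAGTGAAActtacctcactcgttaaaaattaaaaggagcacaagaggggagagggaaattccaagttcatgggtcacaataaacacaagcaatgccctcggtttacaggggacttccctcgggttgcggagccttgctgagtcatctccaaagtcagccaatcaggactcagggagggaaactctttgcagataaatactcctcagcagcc
Bst2: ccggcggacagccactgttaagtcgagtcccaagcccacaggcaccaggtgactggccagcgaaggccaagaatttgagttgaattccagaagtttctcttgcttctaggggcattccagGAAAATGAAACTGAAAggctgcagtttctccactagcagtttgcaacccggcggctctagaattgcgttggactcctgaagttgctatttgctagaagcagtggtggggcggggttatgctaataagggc
Oas1a: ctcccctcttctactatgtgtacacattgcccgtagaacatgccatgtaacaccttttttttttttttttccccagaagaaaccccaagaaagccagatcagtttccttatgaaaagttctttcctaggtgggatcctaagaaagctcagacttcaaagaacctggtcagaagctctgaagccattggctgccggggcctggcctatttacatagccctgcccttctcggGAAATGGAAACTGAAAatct
For contrast, chosen after their values were seen, windows of 60 bases are shown around the ISRE cores of members that were called in no comparison. Isg15 is read at chr4:156200856-156200915 on the minus strand, Ifit1 at chr19:34640769-34640828, Ifit3 at chr19:34583365-34583424 and Ifit3b at chr19:34607761-34607820, the last 3 on the plus strand.
Isg15: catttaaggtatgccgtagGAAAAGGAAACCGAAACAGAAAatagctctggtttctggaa
Ifit1: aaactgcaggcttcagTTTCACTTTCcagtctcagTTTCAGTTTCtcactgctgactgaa
Ifit3: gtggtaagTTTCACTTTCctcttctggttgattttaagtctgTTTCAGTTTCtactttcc
Ifit3b: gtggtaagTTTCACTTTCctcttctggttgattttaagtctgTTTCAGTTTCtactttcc
The windows of Ifit3 and Ifit3b differ at 0 of their 60 bases, and the cores of Isg15, Bst2 and Oas1a overlap each other.

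The ISRE core was searched on both strands as 2 copies of GAAA with any 2 bases between them (2 copies of TTTC on the other strand), and the GAS core as TTCNNNGAA, which is its own reverse complement, from 250 bases before to 50 bases after each start. RefSeq promoters were matched for 33 of the 44 members. An ISRE core was present in 18 of these 33 promoters (54.5%), against 3.99% of 27025 genes in the same table, and a GAS core in 8 of 33 (24.2%), against 9.55%. In Bst2 the GAS match overlaps the first ISRE core. The core was present in 3 of the 5 members called in e-cigarette versus air and in 15 of the 28 that were not. A match is a description of the letters and not of binding.

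**Figure D1:**
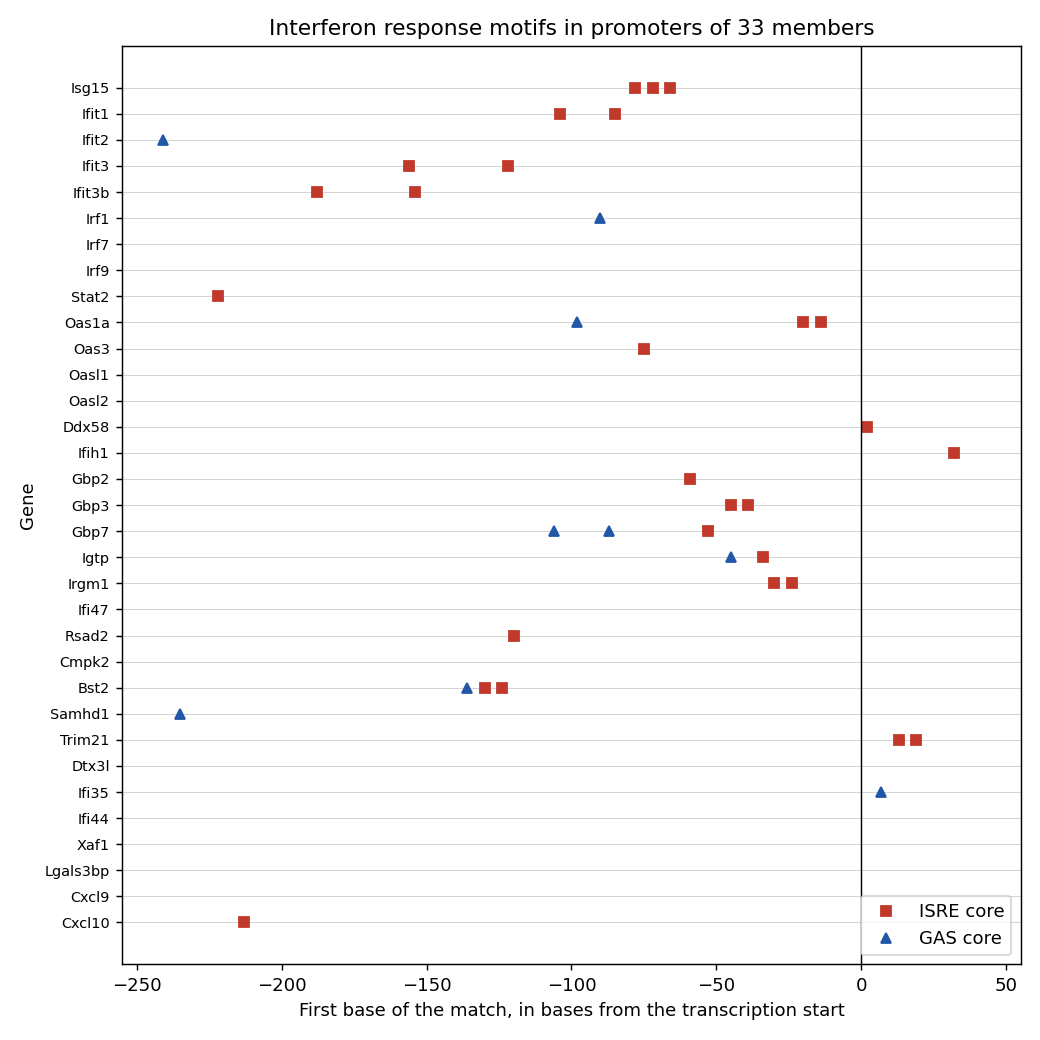
Positions of ISRE cores (squares) and GAS cores (triangles) in the promoters of 33 members, in bases from the transcription start (line at 0), 1 row a gene. ISRE cores sit in 18 rows, and the Cxcl10 core lies farther upstream, at -213, than those of Bst2 and Oas1a, the first of which start at -130 and -20.

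Library totals spanned 15.6 to 17.1 M counts (air), 15.9 to 20.3 M (smoke) and 16.7 to 22.5 M (e-cigarette), and 8 of the 44 members had a median below 100 counts. Libraries differed in how much neighbouring tissue they held. Tg, the thyroglobulin gene, took 6.13% to 10.2% of all reads in the air libraries, 5.87% to 9.24% in those of smoke, but only 0.00795% to 2.77% in those of e-cigarette, so thyroid content and e-cigarette exposure cannot be told apart in the comparisons with that group. In e-cigarette versus air 9 of 10 thyroid markers passed the test (8 lower, 1 higher). Other neighbouring tissues moved with them: 5 of 5 parathyroid markers were lower, while 8 of 10 skeletal muscle, 7 of 10 glandular acinus and 3 of 12 cartilage markers were higher (1 cartilage marker was lower). In smoke versus air 3 of 10 glandular acinus markers were higher, and 0 of the thyroid, parathyroid, muscle and cartilage markers were called. Endothelium had 1 of 8 markers higher, epithelium 1 of 9 lower and adipocytes 0 of 7 called, against 1.59% of all tested genes. In e-cigarette versus air 1, 2 and 1 of these were lower and 0 higher. In smoke versus e-cigarette 8 of 10 thyroid, 4 of 5 parathyroid and 1 of 12 cartilage markers were higher. So were 4 of 7 adipocyte and 2 of 8 endothelium markers. Lower were 4 of 10 muscle and 1 of 9 epithelium markers, with 0 of 10 gland markers called (16.5% of all tested genes were). The part of these tissues in the members' values was not tested. The thyroid score used below cannot test it for thyroid, because that score nearly repeats the e-cigarette group. Its highest e-cigarette value, 5.84 (library 1), lay under the lowest smoke value, 6.71 (library 4), and the lowest air value, 6.75 (library 3).

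Markers of leukocytes, which express many of these genes, moved in both directions. The summed level of 8 B cell markers spanned 4.39 to 8.65 CPM (air), 4.46 to 7.43 (smoke) and 1.04 to 3.72 (e-cigarette), that of 8 dendritic cell markers was 29.1 to 39.9, 29.9 to 34.8 and 20.2 to 25.5, that of 10 T cell markers was 6.49 to 9.00, 5.68 to 7.77 and 3.91 to 8.69, and that of 8 pan-leukocyte markers was 74.3 to 96.9, 72.2 to 91.0 and 54.1 to 94.99. That of 10 macrophage markers went the other way, at 2072 to 6918 CPM (air), 3945 to 4467 (smoke) and 5053 to 10718 (e-cigarette). In e-cigarette versus air 3 of the 10 were called higher (30%, against 12.1% of all tested genes) and 0 lower. The median log2 change of the 10 was 0.16, and such a sum is weighted to its most abundant genes. Air 4, 5 and 6 had the lowest macrophage sums of their group and also the lowest glandular acinus sums. The part of gland content in the macrophage sum was not tested. The sums of 8 neutrophil markers (7.44 to 12.6, 3.85 to 17.2 and 5.29 to 16.2), 5 plasmacytoid dendritic cell markers (7.46 to 17.6, 9.15 to 15.6 and 11.7 to 14.9) and 6 NK cell markers (2.07 to 2.57, 1.62 to 2.46 and 1.36 to 2.81) overlapped between e-cigarette and air. No gene of these 8 lists was at 0 in a whole group. The sum of 6 thymocyte markers was 10.8 to 17.6 CPM (air), 19.7 to 25.0 (smoke) and 13.9 to 22.1 (e-cigarette). Of its 2 tested genes 1 was higher against air in each exposure, beside 0.975% (smoke) and 12.1% (e-cigarette) of all tested genes. Rag1 and Rag2 were at 0 in air, Ptcra in smoke, and Dntt and Ptcra in e-cigarette. In bulk tissue, fewer cells of a type and less RNA per cell cannot be told apart.

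No member was called in smoke versus air, and few were in the other comparisons. In smoke versus air, 0 of the 44 members passed the test (edgeR's quasi-likelihood test, Benjamini-Hochberg adjusted p below 0.05). Of all tested genes 1.59% did (0.975% higher, 0.616% lower). DESeq2 and limma voom also called 0 members. Before adjustment the edgeR p was below 0.05 for 3 of the 44 members, beside 3485 of the 17537 tested genes. In e-cigarette versus air 5 members (11.4%) passed, against 25.1% of all tested genes. Dtx3l rose (1 of 44, against 12.1% of all genes), and Cxcl10, Bst2, Oas1a and Irf9 fell (4 of 44, 9.09%, against 13%). In smoke versus e-cigarette Samhd1, Ddx58, Ifi27 and Rsad2 were higher (4 of 44, 9.09%, against 10.4% of all genes) and 0 were lower (against 6.1%), where 16.5% of all tested genes were called in either direction. The comparisons share libraries, the air group in the first 2 and the e-cigarette group in the last 2.

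Median log2 fold changes of the 44 members were 0.09 in smoke versus air, 0.00 in e-cigarette versus air and 0.06 in smoke versus e-cigarette, beside 0.01, 0.01 and -0.01 for all tested genes. Single members ranged from -0.74 to 0.53, from -1.57 to 0.54 and from -0.45 to 0.83. The 95% interval lay within a change of 2-fold either way for 42 members in smoke versus air (all but Oas3 and Cxcl10), for 38 in e-cigarette versus air and for 37 in smoke versus e-cigarette. Within 1.5-fold it lay for 21, 22 and 19 members. Summed over the 44 genes, the level was 926 ± 99.5 CPM in air, 995 ± 129 in smoke and 881 ± 93.4 in e-cigarette (SD, n = 6 each), and the ranges overlapped.

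**Figure D2:**
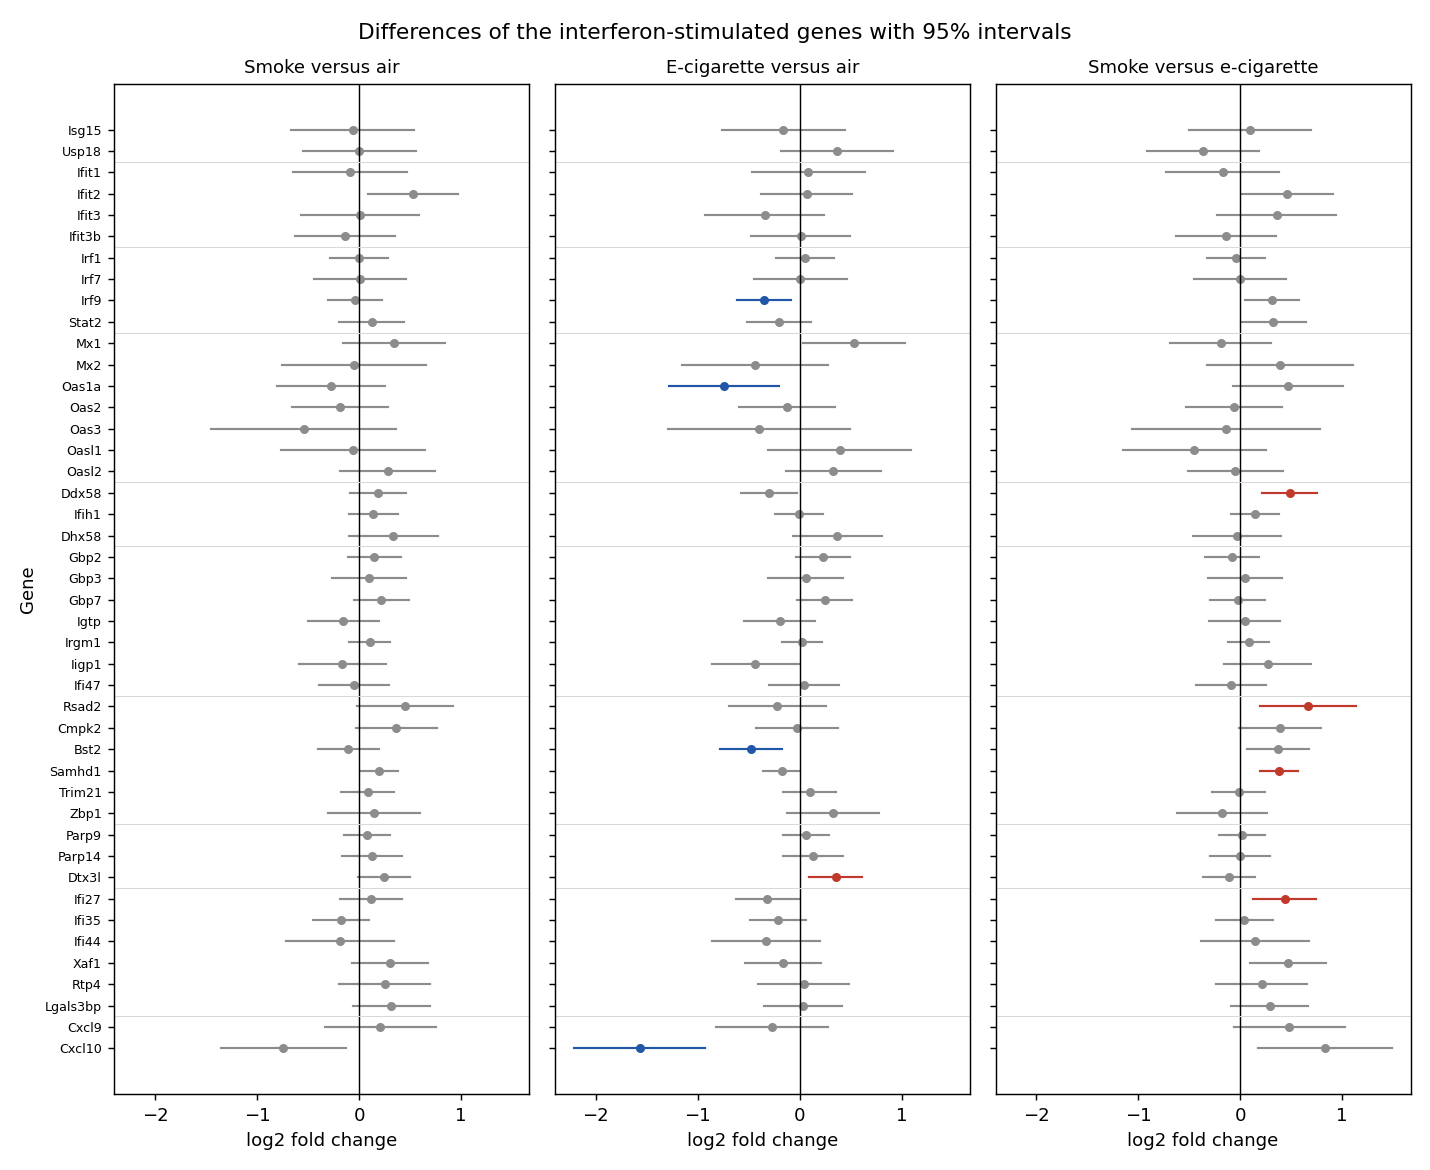
Log2 fold changes (points) with 95% intervals (lines) of the 44 members in the 3 comparisons, 1 row a gene, rows grouped by role. Coloured points passed the edgeR test (red higher, blue lower): 0 in smoke versus air, 5 in e-cigarette versus air and 4 in smoke versus e-cigarette.

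Cxcl10 was the 1 member called with a change of at least 2-fold. It encodes the chemokine that draws T and NK cells bearing CXCR3 to inflamed tissue (ENSMUSG00000034855, chromosome 5, 92346638 to 92348889, minus strand, GRCm38). In air its level was 1.26, 3.22, 2.57, 2.63, 4.95 and 2.51 CPM in libraries 1 to 6, in smoke 2.36, 2.30, 1.80, 2.08, 0.883 and 0.811, and in e-cigarette 1.21, 0.917, 1.12, 0.972, 0.808 and 0.737. Every e-cigarette library was below every air library, a separation seen in 1 of 44 members and in 10.5% of all tested genes. The smoke libraries fell between, with smoke 5 and 6 as low as the e-cigarette libraries and the other 4 above them.

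Cxcl10 fell 2.97-fold in e-cigarette versus air, a log2 change of -1.57 (SE 0.31, edgeR adjusted p = 0.000889). In smoke versus air it was at -0.74 (SE 0.30, edgeR adjusted p = 0.167), with 6 of 6 smoke libraries below the air mean, and in smoke versus e-cigarette at 0.83 (SE 0.31, edgeR adjusted p = 0.0780). These values rest on 14 to 87 reads a library, and 133 exon bases of Cxcl10 (5.91%) overlap Art3 on the opposite strand. Since the library kit does not mark strand, reads from the shared bases cannot be told apart. The fall was called without any 1 of the 18 libraries (adjusted p 0.000286 to 0.00282). It was not called without e-cigarette 2, 4, 5 and 6, the libraries with least Tg (-1.31, adjusted p = 0.140). Nor was it called when the thyroid score was a covariate (-1.21, adjusted p = 0.393), but that fit cannot separate thyroid content from e-cigarette exposure. Its neighbour Cxcl9, a second CXCR3 ligand that interferon gamma induces, had medians of 1.33 CPM in air (0.748 to 1.92), 1.34 in smoke (1.22 to 2.23) and 1.13 in e-cigarette (0.672 to 1.33), overlapping ranges, and was not called (e-cigarette versus air -0.27, edgeR adjusted p = 0.487).

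**Figure D3:**
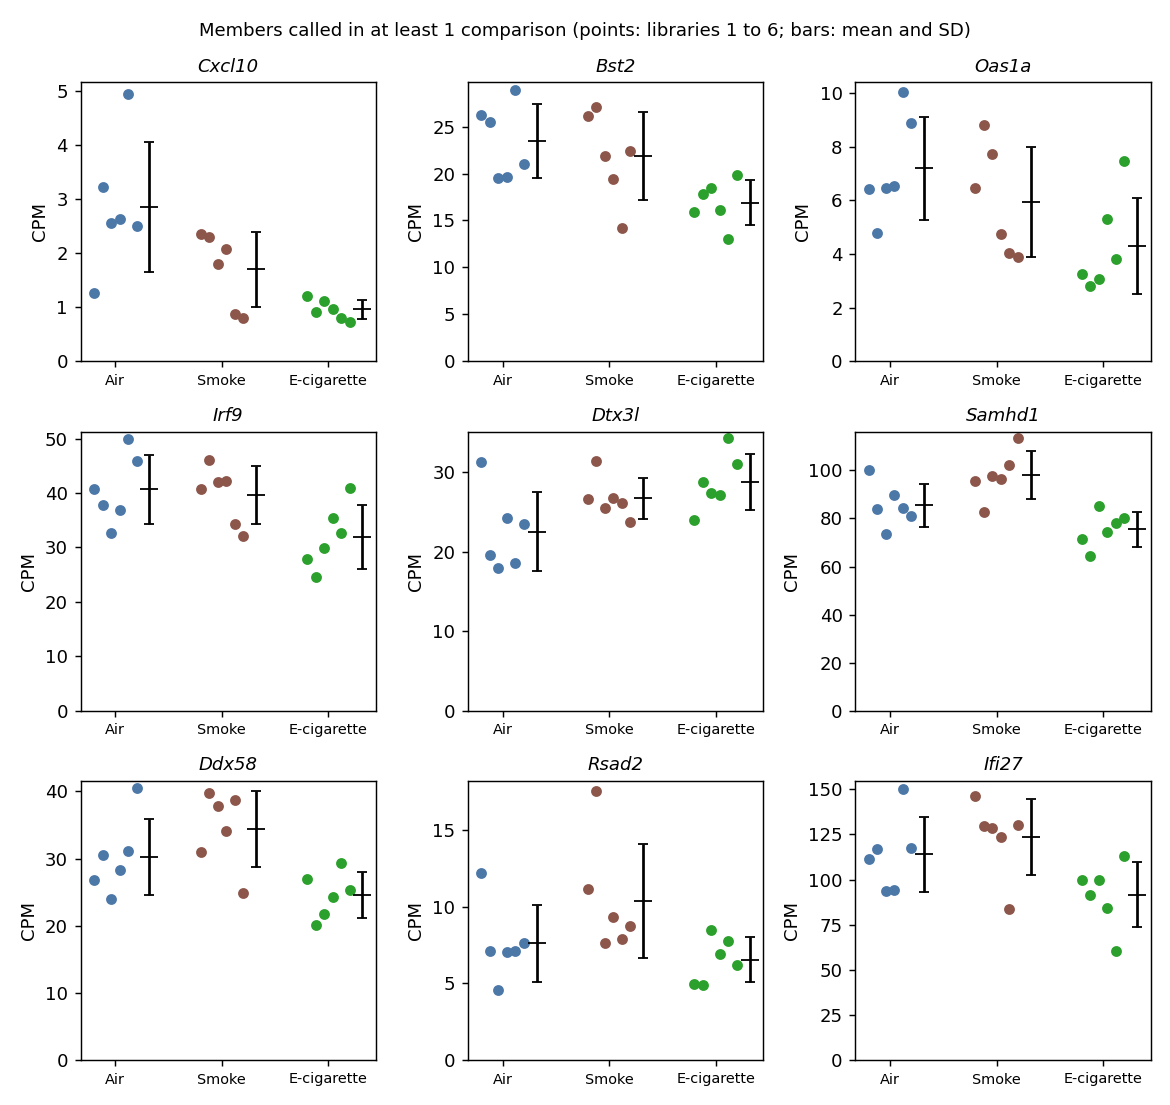
CPM of the 9 members called in at least 1 comparison, by group; points are libraries 1 to 6 from left to right, bars are means with SD, and each axis starts at 0. The e-cigarette points of Cxcl10 lie below all 6 air points, while the groups of the other 8 genes overlap.

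Of 4 transcription factors of the pathway, 1 was called. Irf9, the DNA-binding subunit of ISGF3 (ENSMUSG00000002325, chromosome 14, 55603571 to 55610030), ranged from 32.6 to 50.03 CPM in air (median 39.3), 32.1 to 46.1 for smoke (41.4) and 24.6 to 41.0 for e-cigarette (31.3). Of the e-cigarette libraries 4 were below the lowest air library, and e-cigarette 4 and 6 lay within the air range. Irf9 fell by 0.35 on the log2 scale (SE 0.13, edgeR adjusted p = 0.0479), a call present in 14 of 33 alternative analyses. Stat2, its partner, had medians of 36.5 CPM in air (34.3 to 50.6), 41.4 in smoke (33.6 to 56.5) and 34.4 in e-cigarette (23.9 to 46.3), and its e-cigarette versus air value was -0.20 (edgeR adjusted p = 0.354).

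Irf7, the factor that amplifies type I interferon production, and Irf1, an early target of interferon gamma, had log2 fold changes near 0. Irf7 ran from 12.3 to 25.0 CPM in air (median 20.3), 12.2 to 27.7 for smoke (18.2) and 14.2 to 29.8 for e-cigarette (19.4), and its log2 fold changes against air were 0.01 for both exposures (SE 0.22 each). Irf1 ran from 42.5 to 57.5 CPM in air (45.6), 36.5 to 63.8 for smoke (46.5) and 40.6 to 67.8 for e-cigarette (44.9), with changes of 0.00 and 0.05 (SE 0.14 each). The 3 groups overlapped throughout in both genes.

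Neither the gene of the ubiquitin-like modifier ISG15 nor that of its protease was called. Isg15 had a median of 6.80 CPM in air (4.33 to 10.3), 6.70 in smoke (2.78 to 13.4) and 6.47 in e-cigarette (4.79 to 9.67). Usp18, which removes ISG15 from proteins and damps the type I receptor, had medians of 8.72 (4.49 to 14.4), 9.19 (3.97 to 14.8) and 11.1 CPM (9.39 to 14.8). For both genes the widest range was in smoke, from smoke 5 at the bottom to smoke 2 at the top. Usp18 was at 0.37 in e-cigarette versus air (SE 0.26, edgeR adjusted p = 0.327), with 6 of 6 libraries above the air mean.

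The IFIT family includes proteins that bind viral RNA, and 0 of the 4 IFIT genes was called. Ifit1 had medians of 16.5 CPM in air (8.79 to 25.8), 13.7 in smoke (10.9 to 31.5) and 20.2 in e-cigarette (12.9 to 22.1). Ifit3 had medians of 16.4 (9.11 to 30.2), 15.6 (12.3 to 33.2) and 14.5 CPM (9.94 to 17.3). Ifit2, singled out after its values were seen, was the 1 member of 44 whose smoke and e-cigarette ranges did not overlap, as in 9.37% of all tested genes.

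Ifit2 lay at 12.2 to 16.3 CPM in smoke (median 14.8), 7.13 to 12.0 in e-cigarette (10.7) and 4.17 to 14.1 in air (10.3). Its log2 differences were 0.46 in smoke versus e-cigarette (SE 0.21, edgeR adjusted p = 0.152) and 0.53 in smoke versus air (SE 0.21, edgeR adjusted p = 0.171), neither of them called. No member's smoke and air ranges were separate, against 2.43% of all tested genes. Ifit3 and Ifit3b share 100-base stretches over 31.7% and 27.4% of their transcripts, so how reads were split between them is uncertain.

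Of 7 Mx and OAS genes, which encode GTPases that trap viral particles and enzymes or relatives of enzymes that make the activator of RNase L, 1 was called. Oas1a (ENSMUSG00000052776, chromosome 5, 120896256 to 120907521) was at 4.77 to 10.0 CPM in air (median 6.51), 3.88 to 8.80 for smoke (5.59) and 2.81 to 7.46 for e-cigarette (3.53). Of the e-cigarette libraries 4 lay below the lowest air library, and e-cigarette 6, at 7.46, lay above the air mean. Oas1a fell 1.67-fold in e-cigarette versus air (log2 -0.74, SE 0.26, edgeR adjusted p = 0.0411), a call present in 19 of 33 alternatives. It shares 100-base stretches with Oas1g over 40.9% of its transcripts, so its reads are uncertain, and Oas1g itself fell (log2 -0.96, edgeR adjusted p = 0.0366).

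Oas2 had medians of 9.09 CPM in air (6.04 to 12.6), 8.56 in smoke (3.91 to 10.8) and 7.82 in e-cigarette (6.55 to 12.4), with no separation. Mx1, of which C57BL/6 mice are known to carry a truncated, inactive allele, had medians of 9.57 CPM in air (8.17 to 14.5), 11.8 in smoke (8.08 to 24.5) and 16.0 in e-cigarette (8.96 to 18.0). It was 0.54 higher in e-cigarette versus air (SE 0.24), which did not pass the test (edgeR adjusted p = 0.108), although 4 of 6 libraries exceeded every air library. The other 4 genes of the class (Mx2, Oas3, Oasl1 and Oasl2) were not called in any comparison, and Oas3 was the lowest of the 44 members, with 3 to 23 reads a library.

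RIG-I, encoded by Ddx58, and its relatives detect viral RNA in the cytoplasm. Ddx58 (ENSMUSG00000040296, chromosome 4, 40203773 to 40239828) ran from 24.0 to 40.5 CPM in air (median 29.4), 24.9 to 39.7 for smoke (36.0) and 20.05 to 29.4 for e-cigarette (24.8). Of the smoke libraries 5 lay above the highest e-cigarette library, and smoke 6 lay among them. Ddx58 was 1.40-fold higher in smoke than in e-cigarette (log2 0.48, SE 0.13, edgeR adjusted p = 0.0157), while against air it was at 0.19 in smoke (edgeR adjusted p = 0.448) and -0.30 in e-cigarette (edgeR adjusted p = 0.106).

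The Ddx58 difference was called without any 1 of the 18 libraries. It was not called without e-cigarette 2, 4, 5 and 6 (0.49, adjusted p = 0.327) or with the thyroid score as a covariate (0.48, adjusted p = 0.591). Its size was about the same in these fits. The score cannot separate thyroid content from e-cigarette exposure. Ifih1, which encodes the sensor of long RNA, MDA5, had medians of 20.9 CPM in air (18.2 to 27.4), 22.4 in smoke (20.7 to 27.9) and 20.6 in e-cigarette (18.5 to 24.9) and was called in 0 comparisons, as was Dhx58.

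None of the 7 guanylate-binding and immunity-related GTPases passed the test in any comparison. These proteins, induced mainly by interferon gamma, assemble on the vacuoles of intracellular microbes. Gbp2 had medians of 18.7 CPM in air (15.4 to 23.3), 20.8 in smoke (18.8 to 23.9) and 21.2 in e-cigarette (16.8 to 31.0). Irgm1, a regulator of this class, had medians of 35.2 (31.5 to 39.7), 37.5 (30.1 to 47.0) and 35.2 CPM (32.0 to 40.4) and changes against air of 0.11 and 0.02 (SE 0.10 each).

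Igtp had medians of 15.1 CPM in air (10.8 to 20.5), 12.8 in smoke (10.5 to 18.0) and 13.5 in e-cigarette (9.90 to 15.6). Iigp1 was at 32.6 (20.8 to 36.0), 26.7 (18.5 to 37.9) and 19.5 CPM (16.2 to 37.2). Its e-cigarette libraries were mostly low with e-cigarette 1 at the top of the range, and the difference from air, -0.44 (SE 0.20), did not pass (edgeR adjusted p = 0.130). The remaining 3 (Gbp3, Gbp7 and Ifi47) had changes between -0.05 and 0.24 against air.

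Among 6 other restriction factors, 1 fell against air and 2 differed between the exposures. Bst2 encodes tetherin, which holds budding virus on the cell surface (ENSMUSG00000046718, chromosome 8, 71534255 to 71537456, minus strand). Its levels were 26.3, 25.5, 19.6, 19.7, 28.9 and 21.03 CPM in air, 26.2, 27.1, 21.9, 19.4, 14.2 and 22.4 in smoke, and 15.9, 17.9, 18.5, 16.1, 13.0 and 19.8 in e-cigarette. Every e-cigarette library but the sixth lay below the lowest air library.

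Bst2 fell by 0.48 on the log2 scale in e-cigarette versus air (SE 0.15, 1.39-fold, edgeR adjusted p = 0.0208). Leaving out air 5, the highest library, ended the call (-0.41, adjusted p = 0.0523). So did a leukocyte score as a covariate (-0.50, adjusted p = 0.0527) and the omission of e-cigarette 2, 4, 5 and 6 (-0.47, adjusted p = 0.245). The thyroid score as a covariate also ended it (-0.30, adjusted p = 0.707), but cannot separate thyroid content from e-cigarette exposure. In smoke versus e-cigarette Bst2 was at 0.37 (edgeR adjusted p = 0.0885).

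Samhd1, a dNTPase that starves reverse transcription (ENSMUSG00000027639, chromosome 2, 157097533 to 157135265), was at 100, 84.2, 73.6, 89.7, 84.2 and 81.2 CPM in air libraries 1 to 6, 95.8, 82.8, 97.5, 96.3, 102 and 114 in smoke, and 71.5, 64.2, 85.0, 74.5, 77.9 and 80.1 in e-cigarette. All smoke libraries but smoke 2 lay above the highest e-cigarette library, so smoke 2, high for most members, was the lowest smoke library here. Samhd1 was 1.30-fold higher in smoke than in e-cigarette (log2 0.38, SE 0.09, edgeR adjusted p = 0.00660), and 0.20 above air in smoke (edgeR adjusted p = 0.218) and 0.18 below it in e-cigarette (log2 -0.18, edgeR adjusted p = 0.153). The difference between the exposures was called without any 1 library. It was not called without smoke 1, 3 and 6 (0.31, adjusted p = 0.106) or e-cigarette 2, 4, 5 and 6 (0.32, adjusted p = 0.356). Nor was it called with the thyroid score in the model (0.32, adjusted p = 0.591), which cannot separate thyroid content from e-cigarette exposure.

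Rsad2 encodes viperin, an enzyme that makes a chain-terminating nucleotide (ENSMUSG00000020641, chromosome 12, 26442746 to 26456452). It had medians of 7.12 CPM in air (4.55 to 12.2), 9.04 in smoke (7.60 to 17.5) and 6.56 in e-cigarette (4.89 to 8.49). Of the smoke libraries 4 exceeded every e-cigarette library, and smoke 2 stood far above the rest. Rsad2 was 1.59-fold higher in smoke than in e-cigarette (log2 0.67, SE 0.23, edgeR adjusted p = 0.0487), but at 0.45 without smoke 2 (adjusted p = 0.152). Zbp1, a sensor of Z-form nucleic acid that triggers cell death, had medians of 4.72 (3.51 to 5.38), 4.19 (3.72 to 8.53) and 5.64 CPM (4.14 to 8.29) and was not called, like Cmpk2 and Trim21.

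Dtx3l was the member that rose. It encodes an E3 ubiquitin ligase that works with PARP9 (ENSMUSG00000049502, chromosome 16, 35926511 to 35939151, minus strand). It ran from 18.0 to 31.3 CPM in air (median 21.6), 23.8 to 31.4 for smoke (26.4) and 24.0 to 34.3 for e-cigarette (28.1). All e-cigarette libraries exceeded the air mean, while air 1 and air 4 lay among them. Dtx3l rose by a log2 change of 0.35 in e-cigarette versus air (SE 0.12, 1.28-fold, edgeR adjusted p = 0.0408), a call present in 7 of 33 alternatives. Its value in smoke versus air was 0.25 (edgeR adjusted p = 0.276). Parp9, the gene of its partner, which overlaps Dtx3l over 458 exon bases on the opposite strand, was at 0.06 in e-cigarette versus air (edgeR adjusted p = 0.712). The library kit does not mark strand, so reads from the shared bases cannot be told apart.

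The remaining 6 members encode induced proteins of other or less defined function, and 1 of them was called. Ifi27, a small membrane protein (ENSMUSG00000064215, chromosome 12, 103434211 to 103440239), ran from 93.4 to 150.2 CPM in air (median 114), 83.6 to 147 for smoke (129) and 60.4 to 113 for e-cigarette (95.6). Of the smoke libraries 5 lay above the highest e-cigarette library, and smoke 5 lay low among them. It was 1.35-fold higher in smoke than in e-cigarette (log2 0.43, SE 0.15, edgeR adjusted p = 0.0480), a call present in 12 of 33 alternatives. Lgals3bp, a secreted galectin-binding glycoprotein, had medians of 61.1 CPM in air (42.4 to 69.7), 73.5 in smoke (59.7 to 96.1) and 60.4 in e-cigarette (39.1 to 84.9), and Ifi35, Ifi44, Xaf1 and Rtp4 were likewise not called.

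Per transcript length, the members spanned a wide range in room air. Ifi27 led at 226 ± 58.4 TPM, followed by Bst2 at 75.6 ± 17.7, Lgals3bp at 60.5 ± 11.3 and Ifi35 at 46.4 ± 10.2 (SD, n = 6). Further down, Ifit3 (30.5 ± 15.3), Isg15 (28.6 ± 11.3), Iigp1 (28.5 ± 7.66) and Samhd1 (27.2 ± 5.16) lay within each other's spread. Cxcl10 came 39th at 3.70 TPM, and Oas3 last at 0.35.

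**Figure D4:**
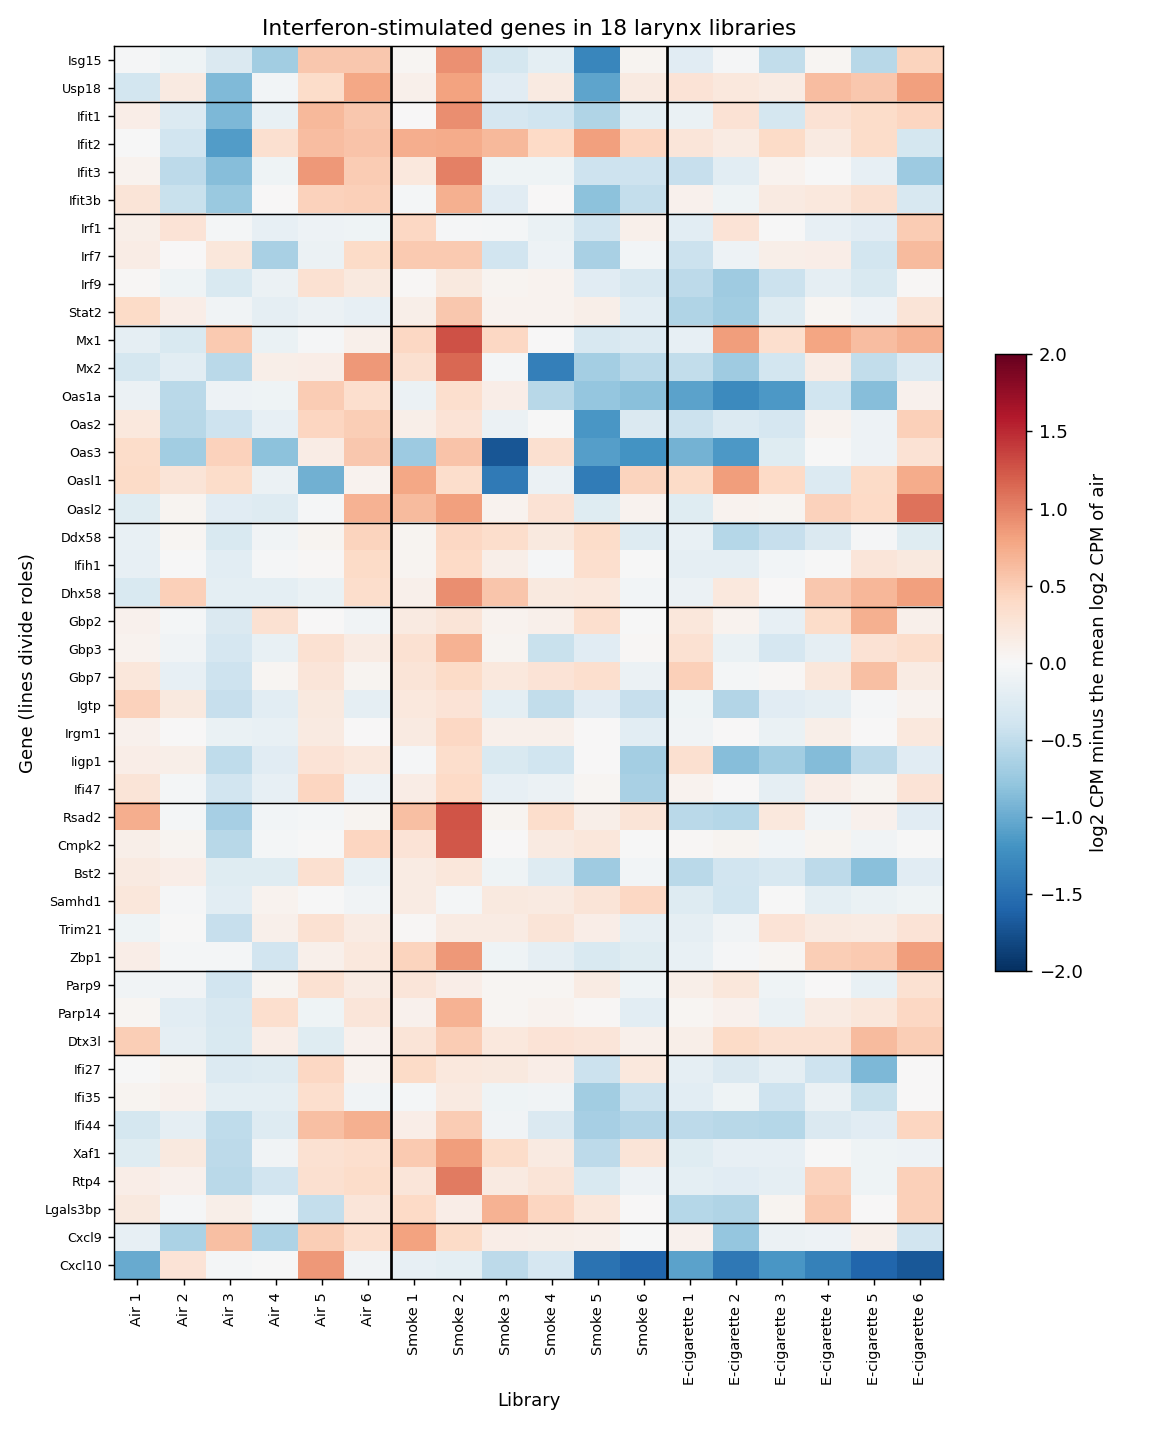
Log2 CPM of the 44 members in the 18 libraries minus the gene's mean over the 6 air libraries, in log2 units (red higher, blue lower), rows grouped by role and columns by group. The column of smoke 2 is red for most genes, and the bottom row, Cxcl10, is blue in all 6 e-cigarette libraries.

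Libraries of the same group differed widely. For the median member the highest library of a group was 1.77 times the lowest in air, 2.07 in smoke and 1.67 in e-cigarette. The largest ratio of 2 group means, taken for each member, had a median of 1.26 over the 44 members and was 2.98 for Cxcl10. Means of 6 libraries vary less than single libraries, so these ratios cannot be compared directly. The differences among libraries of a group ran through many members together. Smoke 2 was the highest of its group for 32 of the 44 members (72.7%, against 15.4% of all tested genes) and the highest of all 18 libraries for 19, with a median deviation of 0.52 (log2) from the smoke mean. Air 3 was the lowest of its group for 28 members (63.6%, against 22.6%), at a median deviation of -0.30, and e-cigarette 6 the highest of its group for 25 (56.8%, against 20.8%), at 0.24. Smoke 5 was the lowest of its group for 17 members (38.6%, against 24.7%), at -0.35, and smoke 6 for 18 (40.9%, against 16.5%), at -0.28.

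The same shift showed in most roles. Averaged over the genes of a role, the mean deviation in smoke 2 was 0.94 for Isg15 and Usp18 and 0.83 for the Mx and OAS genes. It was 0.74 for the IFIT genes, 0.45 for the restriction factors and 0.29 for the transcription factors. Cmpk2, a mitochondrial nucleotide kinase next to Rsad2 on chromosome 12, was at 17.9 CPM in smoke 2 and 7.47 to 9.06 in the other smoke libraries. Of the 8 leukocyte lists, smoke 2 had the highest sum of its group for B cells (7.43 CPM, next 5.55), NK cells (2.46, next 2.02) and macrophages (4467, next 4461). It lay within the range of the other smoke libraries for the pan-leukocyte list (78.4), T cells (6.29), dendritic cells (32.2), plasmacytoid dendritic cells (12.6) and neutrophils (5.90). Air 3 had the lowest pan-leukocyte sum of its group (74.3) and e-cigarette 6 the lowest of its group (54.1). Their part in the shifts was not tested.

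**Figure D5:**
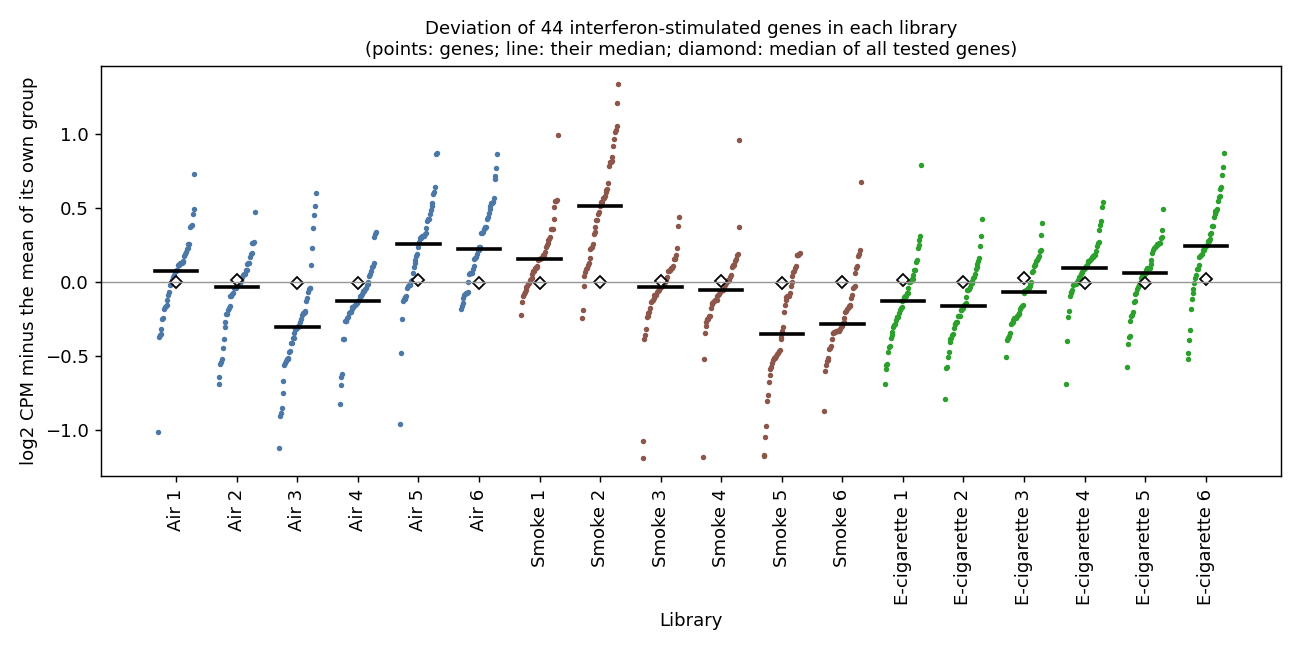
Log2 CPM of each member minus the mean of its own group (points), by library, with the median of the 44 members (line) and of all tested genes (diamond). The line stands at 0.52 in smoke 2, at -0.30 in air 3 and at -0.35 in smoke 5, while the diamonds stay close to 0.

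Within groups the members went up and down together. After the group means were taken out, the median Pearson correlation over the 946 pairs of members was 0.39 across the 18 libraries, and 34.4% of pairs exceeded 0.5, beside a median of -0.00235 and 7.28% over pairs of all tested genes. Points of a pair share library, depth and tissue content, so these values are descriptions. The closest pairs were Ifit3 with Ifit3b (0.93), which share sequence, Usp18 with Xaf1 (0.91), Irgm1 with Ifi47 (0.90) and Bst2 with Ifi27 (0.87). Rtp4, Ifi44 and Ifit1 had the highest mean correlation with the other members (0.56, 0.54 and 0.53), and Samhd1 (-0.12) and Oasl1 (0.06) the lowest.

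Upstream of these genes, the interferons themselves were almost undetected. Of 21 ligand genes, 13 had 0 counts in all 18 libraries and the rest 23 reads together (8 in air, 10 in smoke, 5 in e-cigarette), so none could be tested. A count of 0 over a group allows up to 3 reads, which is 0.0307 CPM in air, 0.0284 in smoke and 0.0261 in e-cigarette, by counting error only. Ifng had 6 of the 23 reads (4, 1 and 1).

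Of 15 genes for interferon receptors and signalling, 0 was called in smoke versus air, where 1.59% of all tested genes were. In e-cigarette versus air 6 of the 15 fell (40%, against 13% of all tested genes) and 0 rose (against 12.1%). Ifnar2, a chain of the type I receptor, was at 26.3 ± 3.12 CPM in air, 26.4 ± 2.84 in smoke and 18.1 ± 1.51 in e-cigarette (SD, n = 6), and fell by 0.54 (edgeR adjusted p = 0.000378). Jak2, the kinase of the interferon gamma receptor, fell by 0.43 (edgeR adjusted p = 0.00366), and Socs1, a feedback inhibitor that interferon induces, by 1.00 (edgeR adjusted p = 0.0218). Socs3, Ptpn2 and Il10rb also fell. In smoke versus e-cigarette Ifnar2, Socs1 and Tyk2 were higher (3 of 15, 20%, against 10.4% of all tested genes).

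Among 20 genes of nucleic acid sensing, 2 rose (Mavs and Trim25) and 4 fell (Irf8, Aim2, Irf3 and Myd88) in e-cigarette versus air, and 0 was called in smoke versus air. The 10% that rose and 20% that fell stand beside 12.1% and 13% of all tested genes. Irf8 was at 16.7 ± 2.01 CPM in air, 17.4 ± 2.05 in smoke and 9.11 ± 1.60 in e-cigarette (SD, n = 6). It is a factor of several leukocyte types and fell by 0.87 (edgeR adjusted p = 4.95e-05). In the same comparison the dendritic cell marker Zbtb46 fell by 0.93 and the B cell marker Cd79b by 2.29 (edgeR adjusted p = 4.99e-05 and 0.000145). Each had the smallest adjusted p of its list. Of tested markers, 1 of 7 for dendritic cells (14.3%) and 2 of 3 for B cells were lower, against 13% of all tested genes. Of 4 plasmacytoid dendritic cell markers 1 was lower, and 3 had changes above 0 that were not called. The part of these cells in the falls of Irf8, Cxcl10 or Bst2 was not tested.

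A further 71 interferon-stimulated genes outside the 44 gave 68 tested. Against air, 0 was called in smoke, and in e-cigarette 4 rose (5.88%, against 12.1% of all tested genes) and 7 fell (10.3%, against 13%). Between the exposures, 5 were higher in smoke than in e-cigarette (7.35%, against 10.4%) and 5 lower (7.35%, against 6.1%). Parp11, a mono-ADP-ribosyltransferase, fell by 1.30 (33.4 ± 7.33 CPM in air, 13.6 ± 3.83 in e-cigarette, SD, n = 6, edgeR adjusted p = 1.61e-05), and Tgtp1, an immunity-related GTPase, by 1.67 (edgeR adjusted p = 0.000418). Slfn9 rose by 0.81 (edgeR adjusted p = 0.00165) and Isg20, an exonuclease for single-stranded RNA, by 0.73 (edgeR adjusted p = 0.0138).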

How the data were processed

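Per the labels' protocols, RNA of whole larynges was sequenced from NEBNext Ultra libraries, which do not mark strand. The deposited table holds raw counts per gene, whole numbers made by the authors with featureCounts 1.5.0-p3 after alignment by STAR, per the submitters' processing notes (builds GRCm38 and mm10). The version of STAR, the annotation release and the strand setting were not given in the sources used here. Each of 18 columns matched 1 sample title, 0 value columns were unmapped and 0 rows lacked a gene name. Libraries held 15.6 to 22.5 M counts. No library repeated another of its group: over the 45 within-group pairs, chi-square divided by its degrees of freedom was 15.4 to 134.

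Genes passed filterByExpr (minimum count 10, minimum total 15), and the 3 groups were fitted in 1 model in edgeR 4.0.16 (R 4.3.3, TMM factors, robust quasi-likelihood F test), adjusted by Benjamini-Hochberg over 17537 genes. A gene was called, and is said to have risen or fallen, at an adjusted p below 0.05. Adjusted p-values are from edgeR unless another tool is named. Fold changes are log2 values, SE derives from the F statistic, and intervals are 95%. CPM is counts per 1 M of the TMM-scaled library, and TPM uses the deposited gene length, which served to order genes only. Thyroid and leukocyte scores are means of edgeR's log2 CPM, with its default prior count, over the tested genes of marker lists. Transcript overlaps and shared 100-base stretches come from GENCODE M21.

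Members, lists, tests and naming rule were chosen with earlier results of these data known. Values are given for called members and 23 fixed ones, and of other lists up to 5 called genes with the smallest adjusted p. The 33 alternatives included DESeq2 1.42.0, limma 3.58.1 voom, other scalings and filters, a replicate block, score covariates, library subsets and leaving out each library. Protein sequences were not used here.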

Additional observations from a re-analysis of the deposited data

Results flagged for a closer look

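In 14 of 132 groups of 6 values, 1 library stood apart from the other 5 by Dixon's test at the 95% level. For normally distributed values chance alone flags about 1 in 20, or 6.6 of 132. Members moved together within groups, so the flags are not independent and the 14 cannot be read as an excess over 6.6. Of the 14, 8 were high values of smoke 2: Ifit1 at 31.5 CPM (next 16.7), Ifit3 at 33.2 (19.1), Stat2 at 56.5 (42.1), Mx1 at 24.5 (13.5), Rsad2 at 17.5 (11.2), Cmpk2 at 17.9 (9.06), Parp14 at 50.2 (32.7) and Rtp4 at 19.1 (11.1).

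Air 6 was high for Mx2 at 4.62 CPM (next 2.73), Oasl2 at 34.1 (21.7) and Ifih1 at 27.4 (21.3). Smoke 5 was low for Ifi27 at 83.6 CPM (next 123). E-cigarette 6 was low for Ifit2 at 7.13 CPM (next 10.3) and high for Ifi44 at 7.64 (4.79).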

How the results depend on the processing

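Counts of called members depended on the analysis. In smoke versus air the count was 0 in 32 of 33 alternatives and 1 (Ifit2, higher by 1.06) without air 4, 5 and 6. In e-cigarette versus air 5 members became 3 with only the 2 groups fitted or without air 4, 5 and 6, 2 with no filter on low counts, with the replicate block or without smoke 1, 3 and 6, 1 with the leukocyte score or a test against a 1.2-fold change, and 0 with the thyroid score or without e-cigarette 2, 4, 5 and 6. Leaving out each library gave 1 (air 5) to 5, with 2 without air 6 or e-cigarette 2, 3 or 5 and 3 without air 2. In smoke versus e-cigarette 4 members became 8 with voom, 2 with TMM factors that leave out neighbouring-tissue genes, no filter, the replicate block or the leukocyte score, 1 without smoke 1, 3 and 6, and 0 with the thyroid score, the 1.2-fold test or without e-cigarette 2, 4, 5 and 6. Leaving out each library gave 2 to 7, with 7 without smoke 5 and 2 without air 2 or 6, smoke 1, 2 or 4, or e-cigarette 1, 2, 4 or 5. No called member changed direction under the 33 alternatives.

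Calls over all genes moved too. In smoke versus air, 279 became 970 with DESeq2, 1114 with voom, 184 with no filter, 109 with 2 groups, 39 with the replicate block, 163, 451 and 11 without the e-cigarette, air and smoke subsets named above, 20 with the 1.2-fold test and 50 to 562 without 1 library. In e-cigarette versus air, 4406 became 20 with the thyroid score, 688 without 4 e-cigarette libraries and 2153 with the 1.2-fold test. In smoke versus e-cigarette, 2897 became 0, 147 and 1076 under the same settings. The leukocyte score gave 1871, and leaving out smoke 1, 3 and 6 gave 1150. Since the thyroid score nearly repeats the e-cigarette group, fits with it cannot separate thyroid content from e-cigarette exposure for any gene.

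With library totals only, the median change of all genes in e-cigarette versus air went from 0.01 to -0.10 and the called split of higher to lower from 2128 and 2278 to 1432 and 3384. In smoke versus air that scaling gave 115 higher and 179 lower, RLE factors 130 and 141 and TMM without neighbouring-tissue genes 133 and 128, beside 171 and 108. In smoke versus e-cigarette library totals gave 2140 and 677, beside 1828 and 1069.

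Replicate numbers did not pair the libraries: same-numbered libraries correlated at -0.29 to 0.12 in smoke and air, -0.31 to -0.02 in e-cigarette and air and -0.45 to 0.16 in smoke and e-cigarette, and the same-numbered library was the best match in 0 of the 6 pairs of each comparison. Fits without sets of libraries have few libraries in an arm. Of the members, Oas3 had the widest intervals and few reads (3 to 23 a library). Width did not follow read number alone. Oasl1, with a median of 224.5 reads, had wider intervals than Cxcl10, with a median of 27.5.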
